A study of Mus musculus with 3 samples.

Results

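The genes described here encode the Wnt ligands, their receptors and co-receptors, their secreted inhibitors, and the cytoplasmic and nuclear proteins that carry the signal. They were chosen by symbol from the array annotation: the Wnt, Fzd, Sfrp, Dkk, Dvl and Axin families, Tcf7l1, Tcf7l2, Dkkl1, Lrp5, Lrp6, Lef1, Ctnnb1, Apc, Wif1 and Frzb. Of 53 mouse genes that fit this rule 52 were measured, among 18194 genes in all, and Tcf7 was not analysed here. Expression was measured in 3 samples of astrocytes labelled wild type and made from mouse embryonic stem cells, all in 1 group. The stem cells passed through embryoid bodies for 4 days and a neural selection medium (ITSFn) for 5 to 7 days, and the precursors were kept in FGF2 and EGF2. After 18 passages the growth factors were withdrawn and 5% fetal bovine serum was given for 5 days, so every sample carries the same serum exposure. No undifferentiated, precursor or untreated group was analysed, so each gene can be compared only with background and between arrays.

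Wnts are secreted, lipid-modified glycoproteins that bind Frizzled receptors. With the co-receptors Lrp5 and Lrp6 a Wnt halts the destruction complex of Axin, Apc, Gsk3 and casein kinase 1, and beta-catenin (Ctnnb1) then gathers and works with TCF/LEF factors on target genes. Other Wnts act without beta-catenin, through Ror and Ryk receptors and the planar cell polarity proteins. In the developing brain Wnts pattern the midbrain, signal from the cortical hem, drive precursor division, and, as Wnt7a and Wnt7b, direct blood vessels to form the blood-brain barrier.

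Total RNA was labelled with biotin and hybridised to 1-colour Affymetrix Mouse Genome 430 2.0 arrays, which read each gene with 1 or more probe sets. A level is the log2 of the deposited intensity on a gene's brightest probe set, given as mean ± SD over the 3 arrays (n = 3). Background was the 95th percentile of 77 sensory receptor genes (olfactory, vomeronasal, trace-amine and taste), at 3.99, 4.10 and 4.07 log2 units on replicates 1, 2 and 3, with a mean of 4.05. A gene is called above background at a Benjamini-Hochberg adjusted p below 0.05 (limma, one-sample and one-sided, over 18117 genes), and a gene that did not pass is not called absent. Probe sets differ in brightness, so levels are not ranked between genes. The labels do not say that the samples were separate cultures, so the p-values cover the spread among the 3 arrays alone, and this can be technical. All 11 astrocyte markers were above background (Gfap at 12.63 ± 0.12, Aqp4 at 11.87 ± 0.10), and so were all 7 precursor markers (Sox2 at 11.42 ± 0.24). Of 7 pluripotency, 7 neuron, 6 oligodendrocyte, 7 microglia and blood, 6 endothelial, 8 mesenchymal and meningeal, and 7 ependymal and choroid plexus markers, 2, 4, 2, 1, 1, 2 and 3 were called in that order.

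Of the 52 Wnt pathway genes 27 (51.9%) were above background, against 58.3% of all genes tested. Their median distance from the limit was 0.67 log2 units, and that of all genes tested was 1.76. The genes were unevenly spread over the roles of the pathway. Of the ligands 7 of 19 were called and of the secreted inhibitors 2 of 11, while 10 of 12 receptors and co-receptors, 6 of 7 cytoplasmic transducers and 2 of 3 TCF/LEF factors were. All 27 called genes lay above the limit on each array. Of the 25 others 18 lay below it on every array, 6 were above it on 1 or 2 arrays, and Sfrp5 was above it on all 3 without passing. Without adjustment (p below 0.05) 27 passed too, against 59.1% of all genes tested. In a bulk sample fewer cells of a type and less RNA per cell cannot be told apart, so a low level can hold for all cells or be the average of a few expressing cells.

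The number of probe sets moved with the calls. Of 19 Wnt pathway genes read by 1 probe set 3 were called, against 41.7% of the 9111 genes of that kind. With 2 probe sets 15 of 22 were called, against 67.7%, and with 3 or more 9 of 11, against 83.4%. Of the 21 ligands and inhibitors that were not called 14 had 1 probe set, and the part of probe set number in the difference between roles was not tested.

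RefSeq promoter entries (GRCm38.p6) matched 36 of the 52 genes, with 44 transcription starts. The 250 bases before each start were searched on both strands for the TCF/LEF motif, spelled CTTTGAT or CTTTGAA. It was found in 3 of 44 windows (6.82%), at most once in each, against 7.48% of the 32851 windows of all genes. These stretches are shown because they are the member windows that hold the letters through which TCF/LEF factors are known to bind. The motif as read on the gene's strand is in capitals, 5′ to 3′, with 30 bases on each side.
Wnt5b: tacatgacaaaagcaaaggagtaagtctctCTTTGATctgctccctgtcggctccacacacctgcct
Wnt11: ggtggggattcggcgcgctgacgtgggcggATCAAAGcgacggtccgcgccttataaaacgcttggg
Dkk1: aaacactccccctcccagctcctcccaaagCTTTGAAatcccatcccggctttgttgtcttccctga
The Wnt5b stretch lies at chr6:119449421-119449487 on the minus strand, before 1 of 3 starts in the table, with the motif from base -71 to -65. That of Wnt11 lies at chr7:98835031-98835097 on the plus strand, before 1 of 2 starts, with the motif from base -51 to -45 on the opposite strand. The Dkk1 stretch lies at chr19:30549577-30549643 on the minus strand, with the motif from base -117 to -111. Wnt5b and Wnt11 were called above background and Dkk1 was not, as described below. Axin2, the target gene most often used to read beta-catenin activity, had no match in this window. A match is a description of letters and not a measured binding site.

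Among the ligands, Wnt5a, Wnt9a, Wnt7a, Wnt5b, Wnt7b, Wnt4 and Wnt11 were above background. Wnt5a, which mostly signals without beta-catenin and through Ror receptors, was at 8.45, 8.79 and 8.70 log2 units on replicates 1 to 3. Its mean of 8.65 ± 0.18 lay 4.59 above the limit (limma adjusted p = 4.23e-05), and 3 of its 4 probe sets passed. Its close relative Wnt5b, whose promoter window is printed above, was at 6.01, 6.04 and 6.58, with a mean of 6.21 ± 0.32 (limma adjusted p = 5.34e-04). The chosen Wnt5b probe set is of a kind that can bind several transcripts (its name ends in _x_at), and the other one, at 6.09, passed as well. Both relatives were thus clear of the limit on every array and on more than 1 probe set.

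Wnt7a and Wnt7b, the ligands that neural cells send to brain endothelium, were both called. Wnt7a was at 6.77, 6.82 and 7.23, with a mean of 6.94 ± 0.25 that lay 2.89 above the limit (limma adjusted p = 1.58e-04). Wnt7b was at 5.73, 5.77 and 6.20, with a mean of 5.90 ± 0.26 (limma adjusted p = 6.18e-04). For each of them replicate 3 was the brightest array and only 1 probe set passed, of 3 for Wnt7a and of 2 for Wnt7b. When the median over its probe sets replaced the brightest, Wnt7a fell to -0.11 log2 units from the limit and lost its call (limma adjusted p = 0.992), while Wnt7b kept it.

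The other ligands above background were Wnt9a, Wnt4 and Wnt11. Wnt9a, known from joint formation, was at 7.04, 7.31 and 7.82, with a mean of 7.39 ± 0.40 (limma adjusted p = 2.03e-04), on 1 of 2 probe sets. Wnt4, which is required in kidney and female gonad development, was at 5.91, 5.44 and 5.80, and both its probe sets passed (mean 5.72 ± 0.24, limma adjusted p = 0.00113). Wnt11, which directs cell movements in the embryo without beta-catenin, was nearest to the limit. It was at 4.74, 4.78 and 4.93 on its only probe set, a mean of 4.82 ± 0.10 and 0.76 above the limit (limma adjusted p = 0.00477). With the limit at the 99th percentile Wnt11 was no longer called (0.39 above the limit, limma adjusted p = 0.112).

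**Figure D1:**
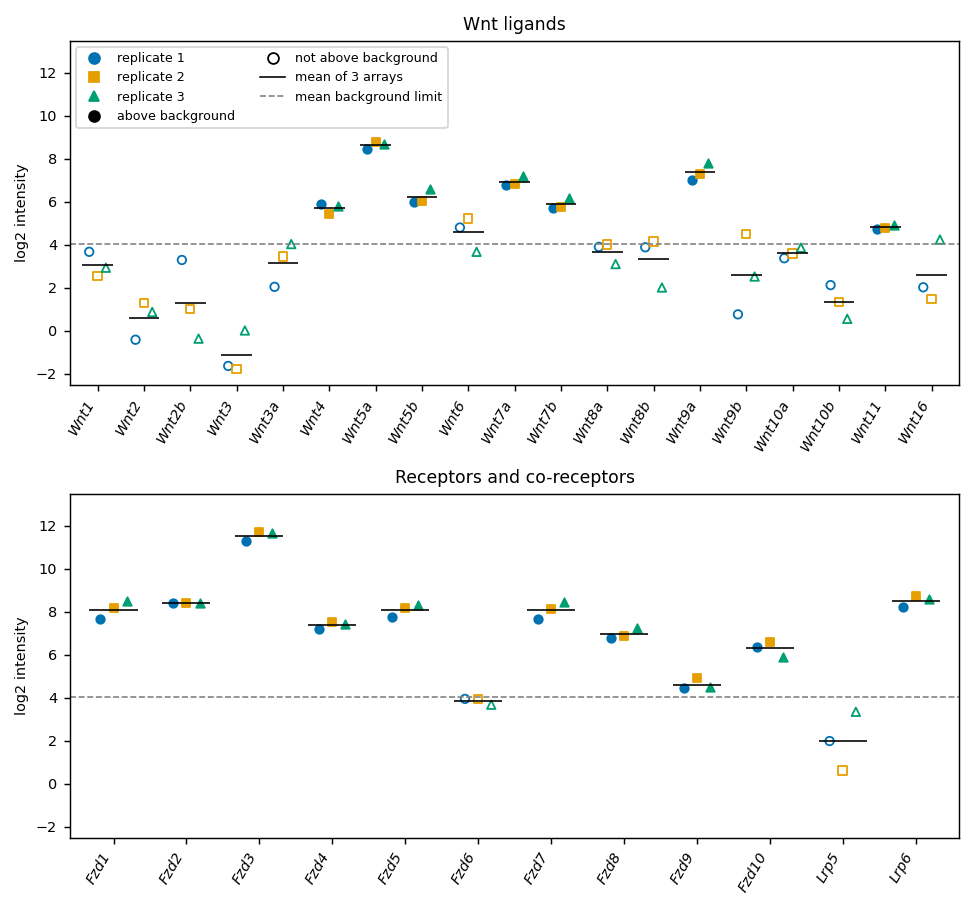
Log2 intensity of the 19 Wnt ligand genes (top) and the 12 receptor and co-receptor genes (bottom) on each of the 3 arrays. Symbols are arrays, filled where the gene was above background, short bars are means, and the dashed line is the mean background limit of 4.05. Ligands lie on both sides of the line, with 7 above it by the test, and 10 of 12 receptors and co-receptors are above it.

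The 12 ligands that did not pass had means from -1.13 to 4.58. Wnt6, an ectodermal ligand, was at 4.81, 5.24 and 3.68, above the limit on replicates 1 and 2 and below it on replicate 3 (mean 4.58 ± 0.80, limma adjusted p = 0.196). Without replicate 3 it lay 0.98 above the limit and passed on this probe set (limma adjusted p = 0.0167). Its other probe set was at 2.95 ± 0.17 and did not pass, and with the median over both Wnt6 lay at -0.27. Of the ligands best known for beta-catenin signalling in the brain, Wnt1, which maintains the midbrain-hindbrain border, was at 3.06 ± 0.57. Wnt3a, the cortical hem signal needed for the hippocampus, was at 2.05, 3.46 and 4.04, just under the limit on the last array. Wnt3, which is needed for gastrulation, was at -1.63, -1.78 and 0.02 on its only probe set, again of the _x_at kind.

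Among the remaining ligands the arrays often parted, but at background level, where small intensity differences are large in log2. Before log2 Wnt9b, for example, was at 1.71, 22.8 and 5.78 on replicates 1 to 3. Wnt8b and Wnt2b, also expressed in the cortical hem, were at 3.36 ± 1.16 and 1.32 ± 1.85. Wnt9b, a signal of kidney formation, was at 0.77, 4.51 and 2.53, over the limit on replicate 2 alone. Wnt16, known for its role in bone, was at 2.03, 1.48 and 4.25, over it on replicate 3 alone. Wnt8a and Wnt10a, an early embryonic and a tooth and hair ligand, stayed near the limit at 3.68 ± 0.50 and 3.62 ± 0.24. Wnt10b, which restrains fat cell formation, and Wnt2, a lung and placental ligand, were at 1.35 ± 0.78 and 0.59 ± 0.89, far under it on each array.

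Nearly all Frizzled receptor genes were above background, 9 of 10, against 58.3% of all genes tested. All but Fzd9 were read by 2 or more probe sets. Of all genes 67.7% with 2 probe sets and 83.4% with 3 or more were called. Fzd3, a receptor known for guiding axon tracts, was at 11.28, 11.72 and 11.65, and 5 of its 6 probe sets passed (mean 11.55 ± 0.24, limma adjusted p = 3.84e-05). Fzd2 was at 8.41, 8.42 and 8.42, with an SD of 0.0032, and all 3 of its probe sets passed (limma adjusted p = 4.19e-05). Fzd1 was at 7.65, 8.17 and 8.50, a mean of 8.10 ± 0.43, and both its probe sets passed (limma adjusted p = 1.28e-04). Fzd1, Fzd2 and Fzd7 form the subfamily of close relatives, and all of its members were called. Fzd7 was at 7.69, 8.13 and 8.44, a mean of 8.09 ± 0.38, but on 1 of 2 probe sets (limma adjusted p = 1.03e-04).

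Fzd5 and Fzd8, relatives that serve in eye and forebrain development, were at 8.09 ± 0.27 and 6.96 ± 0.25. The arrays read 7.78, 8.18 and 8.31 for Fzd5 (limma adjusted p = 6.66e-05), on 1 of 2 probe sets, and 6.77, 6.87 and 7.24 for Fzd8 (limma adjusted p = 1.49e-04), on both. Fzd4, the receptor for Norrin in retinal vessels, was at 7.20, 7.55 and 7.45, on 2 of 3 probe sets (mean 7.40 ± 0.18, limma adjusted p = 7.03e-05). Each of these 3 genes was over the limit on every array.

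Fzd10, Fzd9 and Fzd6 were less clear. Fzd10 was at 6.35, 6.61 and 5.92 on 1 probe set (mean 6.30 ± 0.35, limma adjusted p = 6.16e-04) and at -0.53 ± 0.77 on the other. With the median of the probe sets it lay at -1.15 log2 units from the limit. Fzd9, a receptor of the hippocampus and bone, was at 4.44, 4.90 and 4.52 on its only probe set, 0.57 above the limit (mean 4.62 ± 0.24, limma adjusted p = 0.0198). Its call was lost without replicate 1 (limma adjusted p = 0.0586), without replicate 2 (limma adjusted p = 0.140) and with the limit at the 99th percentile (limma adjusted p = 0.422). Fzd6, which orients hair follicles through planar polarity, was at 3.95, 3.95 and 3.68, under the limit on every array and on all 3 probe sets.

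The co-receptors split. Lrp6 was at 8.21, 8.72 and 8.61, a mean of 8.51 ± 0.26, on 1 of 2 probe sets (limma adjusted p = 5.27e-05). Lrp5, its relative with a leading role in bone and retinal vessels, was at 1.99, 0.62 and 3.35 on its only probe set and did not pass.

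The secreted inhibitors were mostly at background level, and the exceptions were Sfrp1 and Sfrp4, decoys that hold Wnts away from Frizzled. Sfrp1 was at 8.03, 8.16 and 8.98, and all 5 of its probe sets passed (mean 8.39 ± 0.52, limma adjusted p = 1.74e-04). Sfrp4 was at 6.13, 5.31 and 5.91 on its only probe set (mean 5.78 ± 0.42, limma adjusted p = 0.00268). Sfrp5 stayed between 4.21 and 4.33, over the limit on every array by a margin too small to pass (0.21 above it, limma adjusted p = 0.142). With the limit at the 90th percentile it passed (limma adjusted p = 0.0226), and at the 99th percentile it lay at -0.17. Sfrp2 was at 1.91, 2.01 and -0.86, and Frzb, a further decoy of the family first known from cartilage, was at 1.94 ± 0.53, and neither passed.

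Wif1, which binds Wnts directly, was at 3.66, 4.86 and 3.97, over the limit on replicate 2 alone (limma adjusted p = 0.574). The Dickkopf inhibitors Dkk1, Dkk2 and Dkk4 act on Lrp5 and Lrp6 rather than the ligand, and none of Dkk1 to Dkk4 passed by limma, adjusted or unadjusted. Dkk1, a target gene and inhibitor of beta-catenin signalling whose motif is printed above, was at 3.72, 3.33 and 4.29, over the limit on replicate 3 alone. Dkk3, the divergent member, was at 3.19 ± 0.91, and Dkk2, Dkk4 and the sperm protein gene Dkkl1 were at 0.79 ± 0.28, 0.26 ± 0.90 and 0.21 ± 0.41. Dkk2, Dkk4 and Dkkl1 were below the limit on each array by several log2 units, each on 1 probe set.

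**Figure D2:**
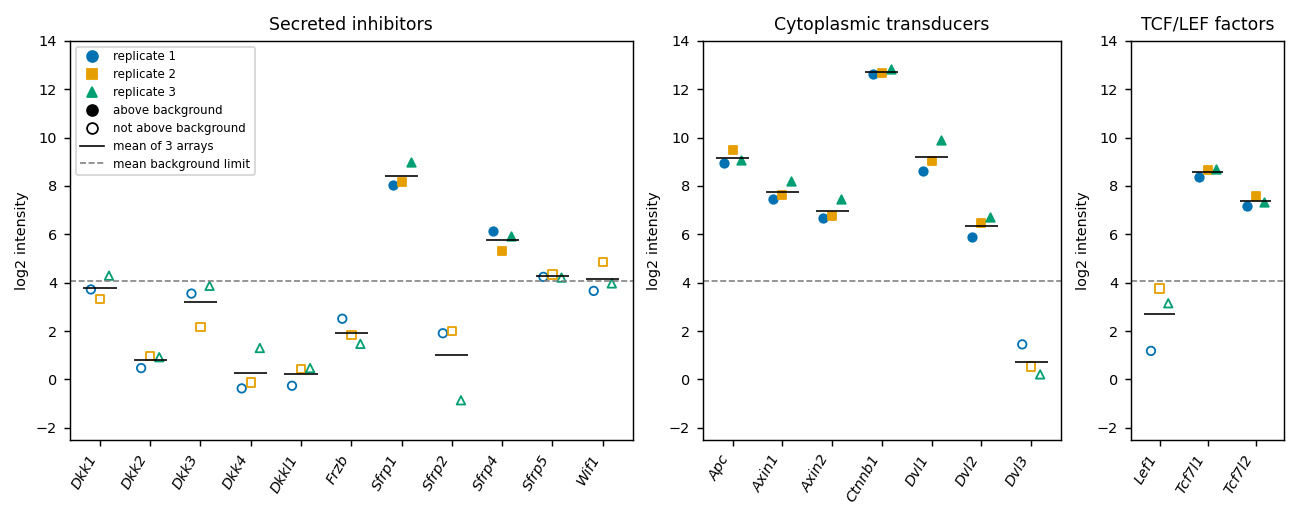
Log2 intensity of 11 secreted inhibitor genes, 7 cytoplasmic transducer genes and 3 TCF/LEF factor genes on each of the 3 arrays. Symbols are arrays, filled where the gene was above background, short bars are means, and the dashed line is the mean background limit of 4.05. Sfrp1 and Sfrp4 are the inhibitors above the line by the test, and Dvl3 and Lef1 are the inner components that did not pass.

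Inside the cell, beta-catenin itself was at 12.64, 12.66 and 12.82 (Ctnnb1, mean 12.71 ± 0.10, limma adjusted p = 3.84e-05). All 3 of its probe sets passed, and the gene also serves cell adhesion, as the partner of cadherins. Genes of its destruction complex were called as well. Apc, the scaffold that presents beta-catenin for destruction, was at 8.93, 9.47 and 9.08, on 3 of 4 probe sets (mean 9.16 ± 0.28, limma adjusted p = 4.64e-05). Axin1, the limiting scaffold of the complex, was at 7.45, 7.62 and 8.20, on both probe sets (mean 7.76 ± 0.40, limma adjusted p = 1.54e-04). Axin2, a scaffold that is also switched on by beta-catenin, was at 6.67, 6.75 and 7.47, highest on replicate 3 (mean 6.96 ± 0.44, limma adjusted p = 3.95e-04). Its other probe set was at 4.08 ± 0.71 and did not pass.

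Dishevelled proteins carry the signal from Frizzled to Axin, and their genes differed. Dvl1 was at 8.61, 9.01 and 9.91, and both its probe sets passed (mean 9.18 ± 0.67, limma adjusted p = 1.94e-04). Dvl2 was at 5.87, 6.48 and 6.70, on 1 of 2 probe sets (mean 6.35 ± 0.43, limma adjusted p = 6.53e-04). For these 2 genes the lowest array was replicate 1 and the highest replicate 3. Dvl3 was at 1.45, 0.53 and 0.21 on its only probe set and did not pass.

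Of the nuclear factors, Tcf7l1 and Tcf7l2 were called and Lef1 was not. Tcf7l1, which mainly represses its targets until beta-catenin displaces it, was at 8.36, 8.66 and 8.70, on both probe sets (mean 8.57 ± 0.19, limma adjusted p = 4.40e-05). Tcf7l2, which can activate or repress, was at 7.18, 7.57 and 7.32, on 3 of 4 probe sets (mean 7.36 ± 0.20, limma adjusted p = 7.77e-05). Lef1, an activating factor that is itself a target gene, was at 1.18, 3.76 and 3.15, below the limit on every array. Its second probe set gave 0.49, 3.44 and 2.98, also below the limit. Both read lowest on replicate 1, but at background level, where small intensity differences are large in log2 (2.26, 13.6 and 8.87 on the first probe set).

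Over all these genes 53 of 104 probe sets were above background, against 52.2% of all probe sets tested. Of the 24 called genes with more than 1 probe set, 10 were called on every one and 9 on only 1. The probe sets of Fzd3 spanned 7.22 log2 units and those of Fzd10 6.83, while those of Wnt5b differed by 0.12 and those of Tcf7l1 by 0.26. Among the 25 genes not called 0 probe sets passed by limma, and without adjustment (p below 0.05) also 0. Each gene was called on its brightest probe set, so the dimmer ones could hardly pass and this count adds little. The calls of Fzd5, Fzd7, Wnt7a and Wnt9a, with gaps of 4.92, 4.58, 4.48 and 4.36, rest on the brightest probe set, the only 1 that passed. A wide gap did not always go with this, since 5 of the 6 Fzd3 probe sets passed.

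**Figure D3:**
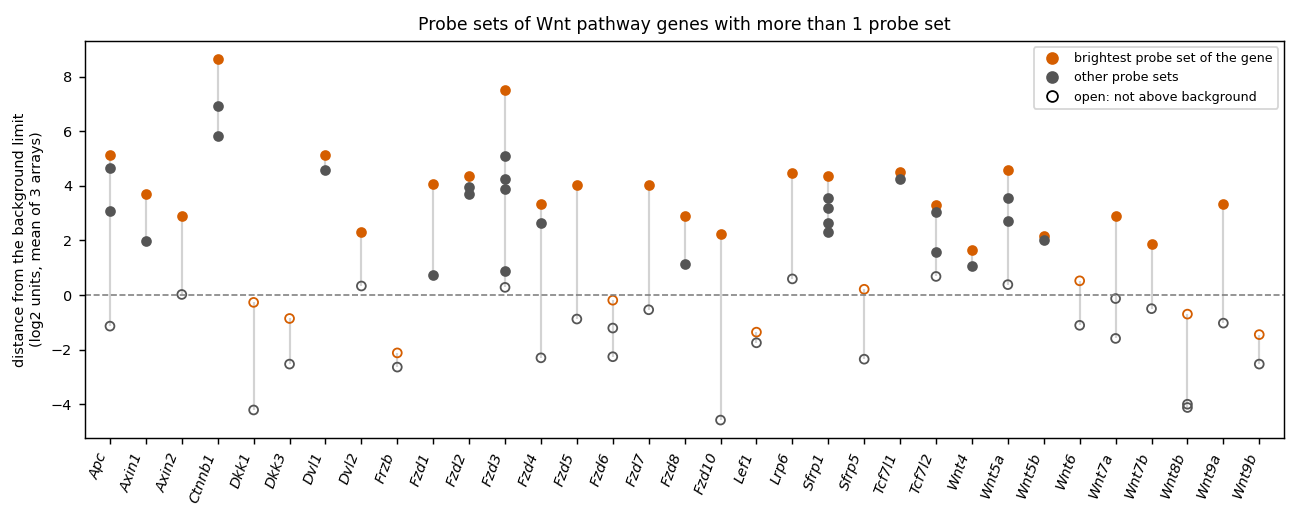
Mean distance of each probe set from the background limit, in log2 units, for the Wnt pathway genes with more than 1 probe set. Orange points are the brightest probe set of a gene, grey points the others, and open points did not pass. Sfrp1, Fzd2, Tcf7l1, Dvl1 and Ctnnb1 pass on all of their probe sets, and Fzd10 spans 6.83 log2 units.

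Further genes of Wnt signalling were followed in 6 lists, and 50 of 69 measured genes outside those above were called (72.5%), with a median distance of 3.24. Over all genes tested the share was 58.3% and the median distance 1.76. These lists were chosen with earlier results of these data known. The parts of that choice and of probe set number in this difference were not tested. Of the genes that release or act beside the ligands, 3 of 8 were called. Wls, the carrier that takes Wnts to the cell surface, was at 9.94 ± 0.20, Porcn, which attaches their lipid, at 8.28 ± 0.33, and Ndp, which encodes the Fzd4 ligand Norrin, at 7.08 ± 0.28. The others were Notum, which removes that lipid, at 4.00 ± 0.73, and Rspo1, Rspo2, Rspo3 and Rspo4, the R-spondins that amplify Wnt signals, at 2.63 ± 0.45, 2.53 ± 1.42, 1.02 ± 1.94 and 0.81 ± 0.58. All 4 R-spondin genes lay under the limit on every array.

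Of 16 other receptors and surface regulators 12 (75.0%) were above background, against 58.3% of all genes tested. Lgr4, a receptor for R-spondins, was at 9.35 ± 0.28, and Ror1 and Ryk, receptors for Wnts that act without beta-catenin, were called as well. Ror1 was at 8.11 ± 0.18, and Ryk was at 8.83, 8.95 and 9.21. Those that did not pass were Lgr6 at 3.91 ± 0.30, Ror2 at 1.65 ± 2.36, Rnf43 at 1.02 ± 2.08 and the inhibitor Sost at 3.24 ± 0.35. Ror2, known as a main receptor of Wnt5a, read -0.20, 0.85 and 4.32 on the 3 arrays, so it was over the limit on replicate 3 alone. Rnf43 and Znrf3 are partner enzymes that remove Frizzled from the surface, and Znrf3 was called at 7.17 ± 0.20. Taking the median over each gene's probe sets left 8 of these 16 genes called, against 50.5% of all genes tested, so the list was then not above that share.

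Of 18 regulators inside the cell 15 (83.3%) were called, against 58.3% of all genes tested and 83.4% of those with 3 or more probe sets. With the median over each gene's probe sets 12 were called, against 50.5% of all genes tested. Gsk3b and Csnk1a1, the kinases that mark beta-catenin for destruction, were at 9.46 ± 0.16 and 11.93 ± 0.05, and Btrc, which hands it to the proteasome, was at 7.36 ± 0.09. Nkd2, Dact1 and Dact2, all Dishevelled-binding regulators, did not pass. Nkd2 was at 3.88 ± 0.66 and Dact1 at 3.92 ± 0.23, and Dact2 read 3.34, 1.21 and 3.57. In the nucleus 8 of 10 co-factors (80.0%) were called, and 6 with that median. Among the 8 were Bcl9 at 6.86 ± 0.30, Pygo2 at 8.15 ± 0.55 and the co-repressor Tle1 at 5.41 ± 0.10. Pygo1 at 4.19 ± 0.46 did not pass, nor did Tle2, at 0.53, 3.18 and 2.60. Planar polarity genes were called in 8 of 10 cases (80.0%), with the core proteins Vangl2 at 10.25 ± 0.17 and Celsr2 at 9.31 ± 0.19. Prickle1 at 4.54 ± 0.67 and Celsr3 at 1.67 ± 1.41 did not pass.

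Genes known as targets of beta-catenin split. Of 16 measured 9 (56.2%) were called, with a median distance of 1.45 log2 units against 1.76 for all genes tested. Besides Axin2, the called targets included Nkd1 at 6.02 ± 0.36 and Apcdd1 at 7.67 ± 0.28, and the widely controlled growth genes Ccnd1 at 8.71 ± 0.29 and Myc at 8.02 ± 0.16. Lgr5, at 4.99 ± 0.12, was called too, but only 0.94 above the limit and on 1 of 2 probe sets. Sp5, a direct target in many tissues, was at 1.41 ± 1.07, and Sp5, Lef1, Notum, Rnf43, Dkk1, Cdx1 and Fgf20 did not pass. Taking the median over each gene's probe sets left 6 of the 16 target genes called, against 50.5% of all genes tested. Setting the limit at the 99th percentile left 8, against 55.3%. Apart from Axin2, Sp5 and Lgr5, the targets named here were picked after their values were seen.

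**Figure D4:**
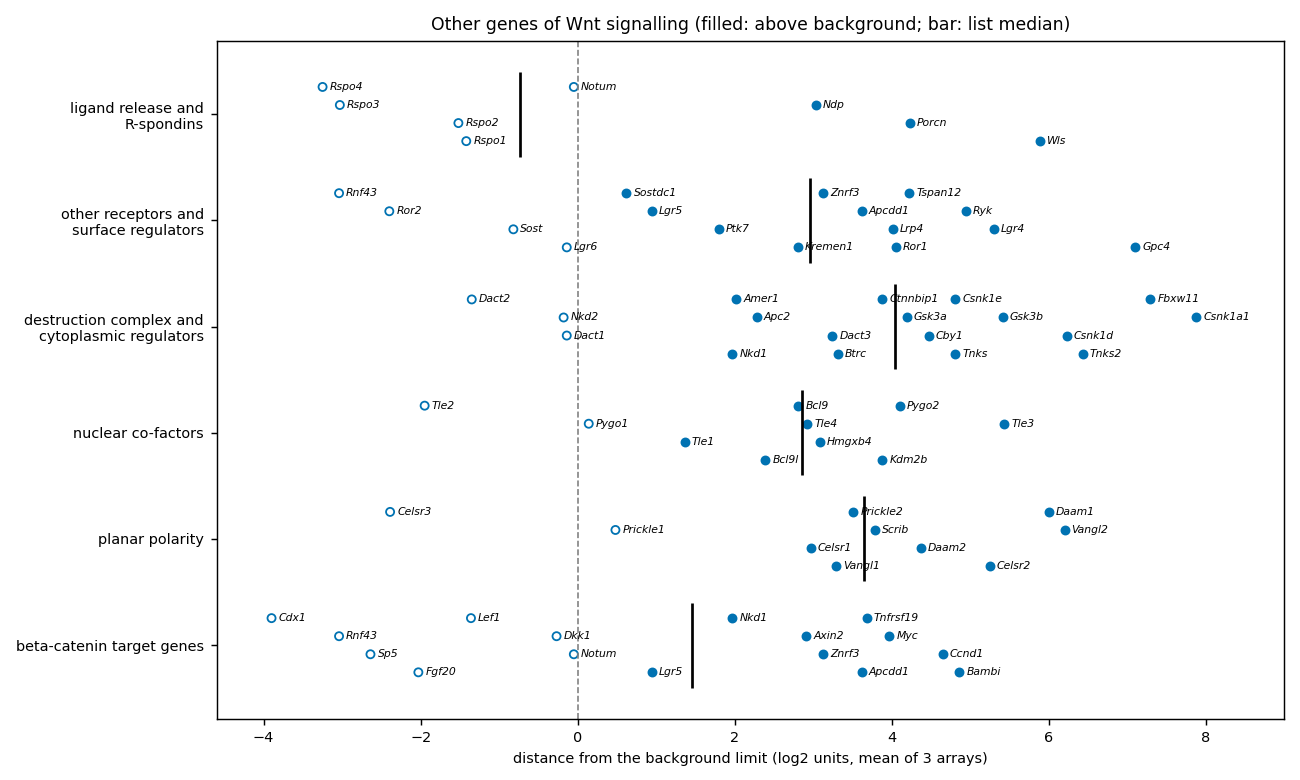
Mean distance from the background limit, in log2 units, of further Wnt signalling genes in 6 lists. Filled points were above background, open points were not, and the vertical bar is the list's median. The 4 R-spondin genes lie left of the limit, Wls and Porcn right of it, and the target genes fall on both sides.

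Between arrays the called Wnt pathway genes varied about as much as other called genes. Their median SD was 0.26 log2 units, against 0.24 over all 10568 called genes, and that of the genes not called was 0.80, against 0.83. After each array's median deviation was taken off, the median deviation of the 27 called genes was -0.02, -0.01 and -0.03 on replicates 1 to 3, so the group's median lay near that of all called genes on each array. Of the 27 genes 12 (44.4%) were highest on replicate 3, against 39.9% of all called genes.

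Single genes did part between arrays on this scale. Dvl1 stood at 0.57 on replicate 3 and -0.39 on replicate 1, and Sfrp1 at 0.43 on replicate 3 and -0.25 on replicate 2. Axin2 and Axin1 also stood highest on replicate 3, at 0.34 and 0.28. Fzd10 went the other way, at -0.54 on replicate 3, and Sfrp4 ranged from -0.49 on replicate 2 to 0.52 on replicate 1. With 1 array for each sample these differences carry no test. Some summed markers of other cells were also brighter on replicate 3, here without the array's median deviation taken off. The summed intensity of 7 ependymal and choroid plexus markers, 3 of them called, was 909, 962 and 1610 on replicates 1 to 3. Most of it was Foxj1, at 717, 704 and 1284 (9.76 ± 0.49 in log2 units), while Ccdc153 read 71.1, 73.9 and 77.9. Otx2, the other called marker, read 92.0, 164 and 179. Rsph1, which was not called, read 8.36, 8.30 and 50.3, so it was also brightest on replicate 3. The choroid plexus marker Ttr was at 2.70 ± 0.94. With the median deviation taken off, each of the 3 called markers was highest on a different replicate. The sum of 6 endothelial markers, 1 of them called, was 94.7, 119 and 198, most of it Kdr at 73.7, 88.1 and 137. That of 11 astrocyte markers was 24123, 26324 and 29332. The sums of oligodendrocyte markers (127, 126 and 121) and of microglia and blood markers (99.6, 95.2 and 92.6) were lowest on replicate 3. Those of the remaining lists were highest there. The part of these cell types in the deviations was not tested.

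**Figure D5:**
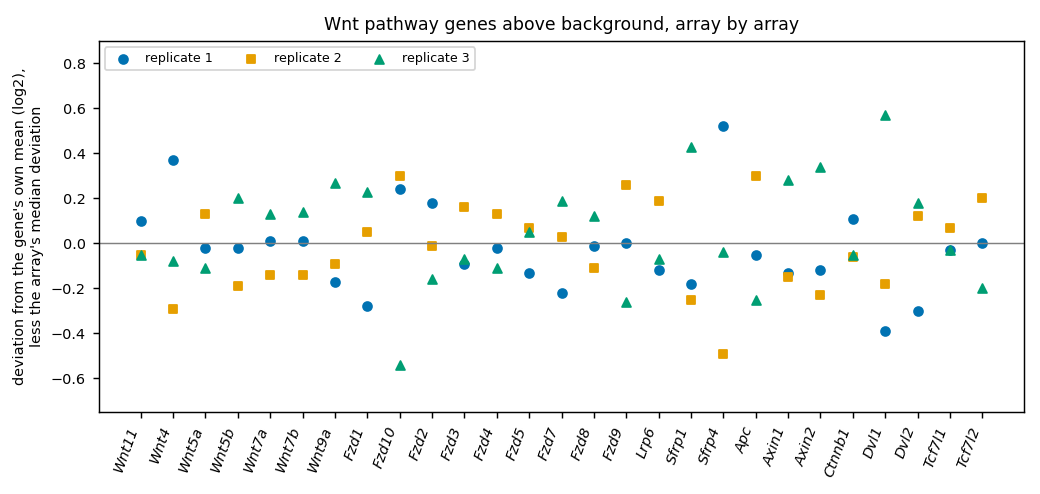
Deviation of each called Wnt pathway gene from its own mean on each of the 3 arrays, in log2 units, after the median deviation of all called genes on that array was taken off. Symbols are arrays. Dvl1 at 0.57 and Sfrp1 at 0.43 stand highest on replicate 3, Fzd10 lies lowest there at -0.54, and Tcf7l1 stays within 0.10 log2 units.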

How the data were processed

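Per the submitters' processing notes the deposited intensity values, 1 linear value for each of 45101 probe sets and array, came from GCOS 1.4. For the algorithm settings, scaling and genome build: not given in the sources used here. No depth applies to arrays, and the number of arrays (3) limits the precision. The platform annotation gives 34958 probe sets 1 gene. Probe sets with several genes (932) were not used, and 9211 are unnamed here. Entrez identifiers were set against the GRCm38.p6 gene table, which changed 0 symbols. Log2 was taken of the deposited intensity without a pseudocount, and each gene took its probe set with the highest mean. Distance is log2 intensity minus the limit of each array, tested with limma 3.58.1 in R 4.3.3. Probe sets were tested in a fit of their own, against the same limits. The procedure was tested on simulated data. The members and lists were chosen with earlier results of these data known. All members are named, and of each further list the first 3 measured genes and any group of 5 or fewer on 1 side of the test. Other named genes were picked after their values were seen. The 12 alternatives tried concern the probe set per gene, the limit, scaling, a pseudocount of 16, a filter on the lowest 25% of genes, and leaving out each array.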

Additional observations from a re-analysis of the deposited data

How the results depend on the processing

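The count of 27 Wnt pathway genes above background lay between 25 and 28 under all 12 alternatives, and between 26 and 28 when an array was left out. The counts of the 5 roles and the 6 further lists stayed within 1.5 times their values, but some reached that edge. Other receptors and surface regulators fell from 12 to as few as 8 and target genes from 9 to 6. Secreted inhibitors rose from 2 to as many as 3. Of the 27 calls 23 held under every alternative run. Those lost were Wnt7a and Fzd10 with the median over each gene's probe sets, Wnt11 with the limit at the 99th percentile, and Fzd9 there and without replicate 1 or 2. On the brightest probe set Wnt11 and Fzd9 lay 0.76 and 0.57 log2 units above the limit, and Wnt7a and Fzd10 2.89 and 2.24. Fitted distances changed sign in 8 cases. With the median over each gene's probe sets Wnt6 lay at -0.27, Wnt7a at -0.11, Fzd10 at -1.15 and Sfrp5 at -1.05 log2 units from the limit. Setting the limit at the 90th percentile placed Fzd6 at 0.06, and at the 99th Sfrp5 lay at -0.17 and Wif1 at -0.27. With an array left out Wif1 lay between -0.21 (without replicate 2) and 0.33 (without replicate 1). Apart from the probe sets and limits that these settings exchange, the cause was not tested. The share of all genes called ran from 50.5% with that median to 79.2% when the lowest 25% of genes were left out, which removes genes from the denominator. No paired analysis was possible because the 3 samples form 1 group.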
